A study of Mus musculus with 2 samples.

Results

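The Wnt pathway genes described here are the ligands, receptors, co-receptors, secreted inhibitors, intracellular effectors and transcription factors of Wnt signalling, read in total RNA from mouse hippocampus. They were chosen by gene symbol alone, as genes named Wnt, Fzd, Lrp5, Lrp6, Dkk, Sfrp, Frzb, Wif1, Dvl, Axin, Apc, Gsk3b, Ctnnb1, Lef1 or Tcf7 with the numbered relatives of these, and 54 of the 55536 mouse genes in the tables matched. They comprised 19 Wnt ligands, 10 Frizzled receptors, 2 Lrp co-receptors, 11 secreted inhibitors, 3 Dishevelled proteins, 5 genes of the destruction complex with its substrate beta-catenin, and 4 Tcf/Lef factors.

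The tissue came from male mice of the strain B6CASTF1/J at 36 days of age, first-generation hybrids that carry a C57BL/6J and a CAST/EiJ genome, with no treatment or engineered allele in the labels. The series holds a single group of 2 libraries, biological replicates 2 and 1, so no condition is compared and the design asks only how abundant each gene was and how far the libraries differed. The labels give both libraries different biosamples and the same donor identifier, and that they are separate animals rests on the replicate numbers. The dissected layer is not given, values sum both parental alleles, and with bulk tissue fewer cells of a type and less RNA per cell cannot be told apart.

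Total expected counts were 29755033 in replicate 2 and 28786216 in replicate 1, of which ERCC spike-ins made up 0.408% in replicate 2 and 0.421% in replicate 1. All 4 excitatory neuron markers, all 5 dentate granule cell markers, all 4 CA1 markers and all 4 CA3 markers passed 1 TPM in both libraries, where 57.8% of protein-coding genes did. So did all 4 neocortex, all 4 striatum and 3 of 4 thalamus markers, so passing 1 TPM does not set the hippocampus apart from these regions. By counts, the 5 dentate markers were all higher in replicate 2 (summed level 172 TPM in replicate 2 and 145 TPM in replicate 1). The 4 CA1 markers were all higher in replicate 1 (212 TPM in replicate 2 and 254 TPM in replicate 1). By the rule given below, 1 of the dentate markers (Dsp) and 0 of the CA1 markers were called apart. The uncalled ones missed only the 1.5-fold minimum of that rule. With no fold minimum, all 5 dentate and all 4 CA1 markers had an adjusted p under 0.05 (exact binomial test). Of all genes tested, 11.4% did. Choroid plexus markers summed to 12.6 TPM in replicate 2 and 5.08 TPM in replicate 1, 7 of the 7 tested were higher in replicate 2 and 6 of these were called apart. None of the 8 listed choroid plexus markers was at 0 counts in either library.

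Wnt proteins are secreted lipid-modified ligands that bind Frizzled receptors together with the co-receptors Lrp5 and Lrp6. In the canonical branch, Dishevelled then blocks the destruction complex of Axin, Apc and Gsk3b, so that beta-catenin escapes phosphorylation and activates genes through Tcf/Lef factors in the nucleus. Other branches act through cell polarity or calcium signalling. In the hippocampus the pathway is known for patterning the field in the embryo, for dentate neurogenesis, and for the shaping of dendrites and synapses in the adult.

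For 5 starts of members with annotated exons absent from the 250 bases upstream, that upstream sequence is shown because beta-catenin signals through Tcf/Lef factors that bind the core CTTTGA, and because Axin2 and Lef1 are textbook targets of the pathway as well as members of it. All run 5′ to 3′ on the gene's strand, end at the base before the start annotated by RefSeq on build GRCm38.p6, and have any CTTTGA on either strand in capitals. These are, in order, the start of Ctnnb1 at chr9:120933150-120933399, of Axin2 at chr11:108920099-108920348, of Gsk3b at chr16:38088751-38089000, and 2 internal starts of Lef1 at chr3:131112541-131112790 and chr3:131156044-131156293, all on the plus strand.
Ctnnb1: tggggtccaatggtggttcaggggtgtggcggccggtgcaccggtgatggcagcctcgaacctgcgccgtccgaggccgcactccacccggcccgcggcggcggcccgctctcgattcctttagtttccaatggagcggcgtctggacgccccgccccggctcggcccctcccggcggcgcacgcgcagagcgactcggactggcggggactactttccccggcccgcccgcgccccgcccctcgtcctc
Axin2: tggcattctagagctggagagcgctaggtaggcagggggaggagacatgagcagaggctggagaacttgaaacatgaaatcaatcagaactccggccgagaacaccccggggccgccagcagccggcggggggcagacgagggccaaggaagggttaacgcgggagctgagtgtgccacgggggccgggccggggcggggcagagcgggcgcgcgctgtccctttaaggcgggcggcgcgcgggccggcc
Gsk3b: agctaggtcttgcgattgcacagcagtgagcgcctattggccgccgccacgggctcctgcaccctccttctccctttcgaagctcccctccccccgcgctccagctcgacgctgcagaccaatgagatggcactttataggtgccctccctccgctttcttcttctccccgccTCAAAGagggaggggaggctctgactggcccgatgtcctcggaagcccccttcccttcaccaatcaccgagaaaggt
Lef1, first internal start: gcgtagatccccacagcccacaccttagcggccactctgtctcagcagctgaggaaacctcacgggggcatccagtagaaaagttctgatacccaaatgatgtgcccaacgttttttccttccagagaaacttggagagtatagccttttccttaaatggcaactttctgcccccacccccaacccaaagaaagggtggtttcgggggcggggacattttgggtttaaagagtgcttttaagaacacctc
Lef1, second internal start: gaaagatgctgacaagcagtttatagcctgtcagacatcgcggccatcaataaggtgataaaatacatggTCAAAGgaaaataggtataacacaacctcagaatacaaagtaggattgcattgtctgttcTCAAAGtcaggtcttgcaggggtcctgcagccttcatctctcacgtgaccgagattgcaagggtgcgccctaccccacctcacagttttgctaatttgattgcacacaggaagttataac

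Searched on both strands, the core was absent from the Ctnnb1, Axin2 and first Lef1 windows, occurred once in the Gsk3b window, and at 2 separate places in the second Lef1 window, each time as its reverse complement TCAAAG. The RefSeq table held 47 windows of 250 upstream bases, with or without annotated exon bases, for 38 of the 54 members, and 7 of these (14.9%) carried the core, near the 13.8% of all 32851 windows (4544). A match of 6 letters is a description of the sequence and not a binding site, and its absence concerns these 250 bases only.

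Across roles, 31 of the 54 genes (57.4%) reached 1 TPM, a level corrected for transcript length, in both libraries, close to the 57.8% of 22028 protein-coding genes that did. The share depended on the role. All 3 Dishevelled genes, all 5 genes of the destruction complex and beta-catenin, all 4 Tcf/Lef factors and both co-receptors passed 1 TPM, as did 8 of 10 Frizzled receptors, but only 6 of 19 Wnt ligands and 3 of 11 secreted inhibitors. At 5 TPM in both libraries, 14 members remained, against 45.0% of protein-coding genes. Summed over all 54 members the level was 716 TPM in replicate 2 and 729 TPM in replicate 1. Destruction complex genes with beta-catenin made up 411 TPM in replicate 2 and 417 TPM in replicate 1, whereas the 19 ligands together made up 43.8 TPM in replicate 2 and 45.5 TPM in replicate 1.

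**Figure D1:**
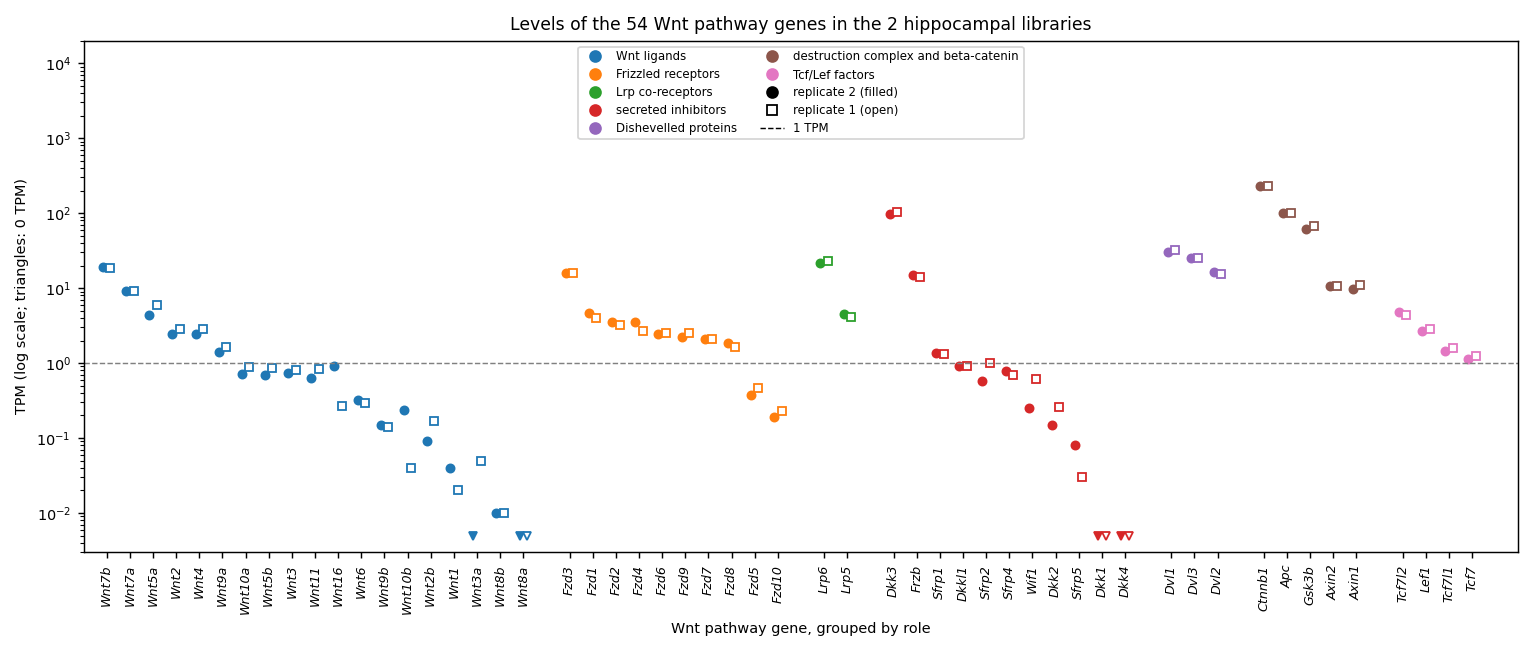
TPM of each of the 54 genes on a log scale, in replicate 2 (filled circle) and replicate 1 (open square), ordered by mean level within each role; triangles mark 0 TPM and the dashed line 1 TPM. Beta-catenin, Apc and Dkk3 lie near or above 100 TPM, and 22 genes, mostly ligands and secreted inhibitors, lie under 1 TPM in both libraries.

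Among the ligands, Wnt7b and Wnt7a stood first. Wnt7b (chr15:85535437-85582473, minus strand) was at 19.3 TPM in replicate 2 (1236 counts) and 18.7 TPM in replicate 1 (1113 counts). Wnt7a (chr6:91363981-91411363, minus strand) was at 9.15 TPM in replicate 2 (342 counts) and 9.17 TPM in replicate 1 (372 counts). Both are close relatives that act on brain endothelium through the cofactors Reck and Adgra2, and Wnt7a is also known to promote dendritic spines and synapses in the mouse hippocampus. Together they held 65.0% of the summed ligand level in replicate 2 and 61.3% in replicate 1 by the TPM of the gene table. The Wnt7a part of this rests in part on very short transcripts described below.

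Wnt5a (chr14:28504750-28527448, plus strand), a ligand of the polarity and calcium branches, followed with 4.44 TPM in replicate 2 and 5.92 TPM in replicate 1. Its counts ran the other way, 392 in replicate 2 and 348 in replicate 1. Wnt2, which stimulates dendrite growth, was at 2.47 TPM in replicate 2 (115 counts) and 2.84 TPM in replicate 1 (126 counts). Levels of Wnt4 were 2.45 TPM in replicate 2 (216 counts) and 2.81 TPM in replicate 1 (237 counts). The last ligand to pass 1 TPM was Wnt9a, at 1.41 TPM in replicate 2 (98 counts) and 1.65 TPM in replicate 1 (109 counts). The values of Wnt7b, Wnt7a and Wnt5a did not overlap those of the next gene in the order, while those of Wnt2 and Wnt4 overlapped.

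The other 13 ligands were under 1 TPM in both libraries. Wnt10a was at 0.72 TPM in replicate 2 and 0.89 TPM in replicate 1, and Wnt5b was at 0.69 TPM in replicate 2 and 0.85 TPM in replicate 1. Wnt3, Wnt11 and Wnt16 reached at least 0.64 TPM in replicate 2, but Wnt16 was at only 0.27 TPM in replicate 1. Wnt6, Wnt9b, Wnt10b, Wnt2b, Wnt1, Wnt3a and Wnt8b had at most 0.32 TPM in either library, and the last 3 of these had 0 to 3 counts per library. Wnt3a and Wnt8b mark the cortical hem, the signalling centre from which the hippocampus is patterned in the mouse embryo. Wnt8a had 0 counts in both libraries, which allows up to 0.0845 TPM in replicate 2 and 0.0886 TPM in replicate 1 at 3 counts.

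Within 200 kb of each other lie 4 pairs of members, all ligands. Wnt3a and Wnt9a on chromosome 11 are divergently transcribed 16.2 kb apart, and only Wnt9a passed 1 TPM. In each of the other 3 pairs both genes were under 1 TPM: Wnt6 with Wnt10a on chromosome 1 (6.19 kb apart), Wnt9b with Wnt3 on chromosome 11 (24.3 kb) and Wnt10b with Wnt1 on chromosome 15 (11.7 kb). The levels of Wnt3 (0.73 TPM in replicate 2 and 0.80 TPM in replicate 1) were above those of Wnt9b (0.15 TPM in replicate 2 and 0.14 TPM in replicate 1).

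Fzd3 (chr14:65192449-65262463, minus strand), a planar polarity receptor needed for axon guidance, led the receptors with 15.7 TPM in replicate 2 and 15.9 TPM in replicate 1. It had 4104 counts in replicate 2 and 4106 counts in replicate 1, and its share of the summed Frizzled level was 42.8% in replicate 2 and 45.2% in replicate 1. The next receptor, Fzd1, was at 4.65 TPM in replicate 2 (411 counts) and 3.96 TPM in replicate 1 (334 counts). No other Frizzled overlapped Fzd3.

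Fzd2 was at 3.54 TPM in replicate 2 (272 counts) and 3.18 TPM in replicate 1 (233 counts). Fzd4, the Norrin receptor of vascular endothelium, was at 3.56 TPM in replicate 2 (508 counts) and 2.68 TPM in replicate 1 (365 counts). Levels of Fzd6 were 2.48 TPM in replicate 2 (145 counts) and 2.49 TPM in replicate 1 (160 counts). Fzd9, a receptor noted for its hippocampal expression, followed with 2.24 TPM in replicate 2 (106 counts) and 2.55 TPM in replicate 1 (115 counts). Fzd7 was at 2.11 TPM in replicate 2 (202 counts) and 2.08 TPM in replicate 1 (190 counts). Fzd8 was at 1.84 TPM in replicate 2 (233 counts) and 1.66 TPM in replicate 1 (200 counts). Fzd2 overlapped Fzd4 and Fzd6 overlapped Fzd9, so the order within these pairs is not firm. Transcripts of Fzd6 under 1000 bases held 39.0% of its TPM in replicate 2 and 27.8% in replicate 1. They had 7.49% of its counts in replicate 2 and 5.79% in replicate 1. On transcripts of at least 1000 bases the mean of Fzd6 was 1.655 TPM. That was below Fzd9 (2.395 TPM), Fzd7 (2.095 TPM) and Fzd8 (1.75 TPM), so the place of Fzd6 among these is not firm either. Fzd5 (0.37 TPM in replicate 2 and 0.47 TPM in replicate 1) and Fzd10 (0.19 TPM in replicate 2 and 0.23 TPM in replicate 1) stayed under 1 TPM.

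Of the co-receptors, Lrp6 (chr6:134446476-134566965, minus strand) was at 21.7 TPM in replicate 2 (3084 counts) and 22.7 TPM in replicate 1 (2745 counts). Lrp5 was at 4.51 TPM in replicate 2 (474 counts) and 4.18 TPM in replicate 1 (430 counts). Lrp6 thus held 82.8% of the summed co-receptor level in replicate 2 and 84.5% in replicate 1. On transcripts of at least 1000 bases the mean level was lower for Lrp6, at 15.2 TPM, beside 4.35 TPM for Lrp5.

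The secreted inhibitors were dominated by Dkk3 (chr7:112116017-112159057, minus strand), the divergent Dickkopf that, unlike Dkk1, is not a classical Lrp6 antagonist. Its level was 97.1 TPM in replicate 2 (6828 counts) and 103 TPM in replicate 1 (6888 counts), which was 83.7% of all inhibitors in replicate 2 and 84.5% in replicate 1. Frzb, also called secreted Frizzled-related protein 3 and known as an activity-dependent brake on dentate neurogenesis in the mouse, was at 14.8 TPM in replicate 2 (746 counts) and 14.0 TPM in replicate 1 (608 counts). Sfrp1 was at 1.37 TPM in replicate 2 (126 counts) and 1.32 TPM in replicate 1 (116 counts). Sfrp2 reached 1 TPM in a single library, with 0.58 TPM in replicate 2 and 1.00 TPM in replicate 1.

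The remaining 7 inhibitors were under 1 TPM in both libraries. Dkkl1 was the highest of them, at 0.91 TPM in each. Sfrp4 was at 0.79 TPM in replicate 2 and 0.70 TPM in replicate 1, and Wif1, Dkk2 and Sfrp5 had at most 0.62 TPM. The Lrp6 antagonists Dkk1 and Dkk4 had 0 counts in both libraries of the gene table, which allows Dkk1 at most 0.0598 TPM in replicate 2 and 0.0627 TPM in replicate 1, and Dkk4 at most 0.114 TPM in replicate 2 and 0.120 TPM in replicate 1. In the second transcript table, a separate quantification of the same libraries deposited beside it, Dkk1 had 6.20 estimated counts in replicate 2 and 5.21 in replicate 1, and Dkk4 had 6 in replicate 2 and 10 in replicate 1, so their absence depends on which table is read.

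Dishevelled proteins, which relay the signal from Frizzled, were all present. Dvl1 was at 30.3 TPM in replicate 2 (2026 counts) and 32.5 TPM in replicate 1 (1914 counts). Dvl3 was at 25.5 TPM in replicate 2 (1786 counts) and 25.1 TPM in replicate 1 (1702 counts). Dvl2 was at 16.5 TPM in replicate 2 (695 counts) and 15.5 TPM in replicate 1 (668 counts). The order Dvl1, Dvl3, Dvl2 held in both libraries without overlap.

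Beta-catenin and its destruction complex were the most abundant role. Ctnnb1 (chr9:120929216-120960507, plus strand), which encodes beta-catenin, also an adherens junction protein, had 228 TPM in both libraries from 11864 counts in replicate 2 and 11221 counts in replicate 1, at the 99.0th percentile of protein-coding genes. The scaffold Apc on chromosome 18 had 101 TPM in both libraries, from 16467 counts in replicate 2 and 16131 counts in replicate 1. Transcripts of Apc under 1000 bases held 22.2% of this TPM in replicate 2 and 18.4% in replicate 1. They had 1.32% of its counts in replicate 2 and 1.08% in replicate 1, and 0% of its TPM in the second table. On transcripts of at least 1000 bases the mean level of Apc was 80.4 TPM. Gsk3b (chr16:38089001-38246084, plus strand), the kinase that marks beta-catenin for degradation, was at 61.5 TPM in replicate 2 (8777 counts) and 66.6 TPM in replicate 1 (8799 counts). The Axin scaffolds were lower: Axin2, itself induced by the pathway, was at 10.6 TPM in replicate 2 (727 counts) and 10.7 TPM in replicate 1 (706 counts), and Axin1 was at 9.81 TPM in replicate 2 (731 counts) and 10.9 TPM in replicate 1 (681 counts). The 2 Axin genes overlapped each other and were far below the other 3 members of the role.

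All 4 Tcf/Lef factors passed 1 TPM and none reached 5 TPM. Tcf7l2, known to be high in thalamus, led with 4.83 TPM in replicate 2 (293 counts) and 4.38 TPM in replicate 1 (244 counts). Thalamus markers summed to 27.2 TPM in replicate 2 and 25.3 TPM in replicate 1, and their part in this level was not tested. Lef1, needed for the formation of the dentate gyrus in the mouse, was at 2.65 TPM in replicate 2 (177 counts) and 2.87 TPM in replicate 1 (174 counts). Tcf7l1, mostly a repressor, was at 1.43 TPM in replicate 2 (75 counts) and 1.57 TPM in replicate 1 (82 counts). Tcf7 was at 1.13 TPM in replicate 2 (54 counts) and 1.26 TPM in replicate 1 (55 counts). Within each library the order was the same.

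**Figure D2:**
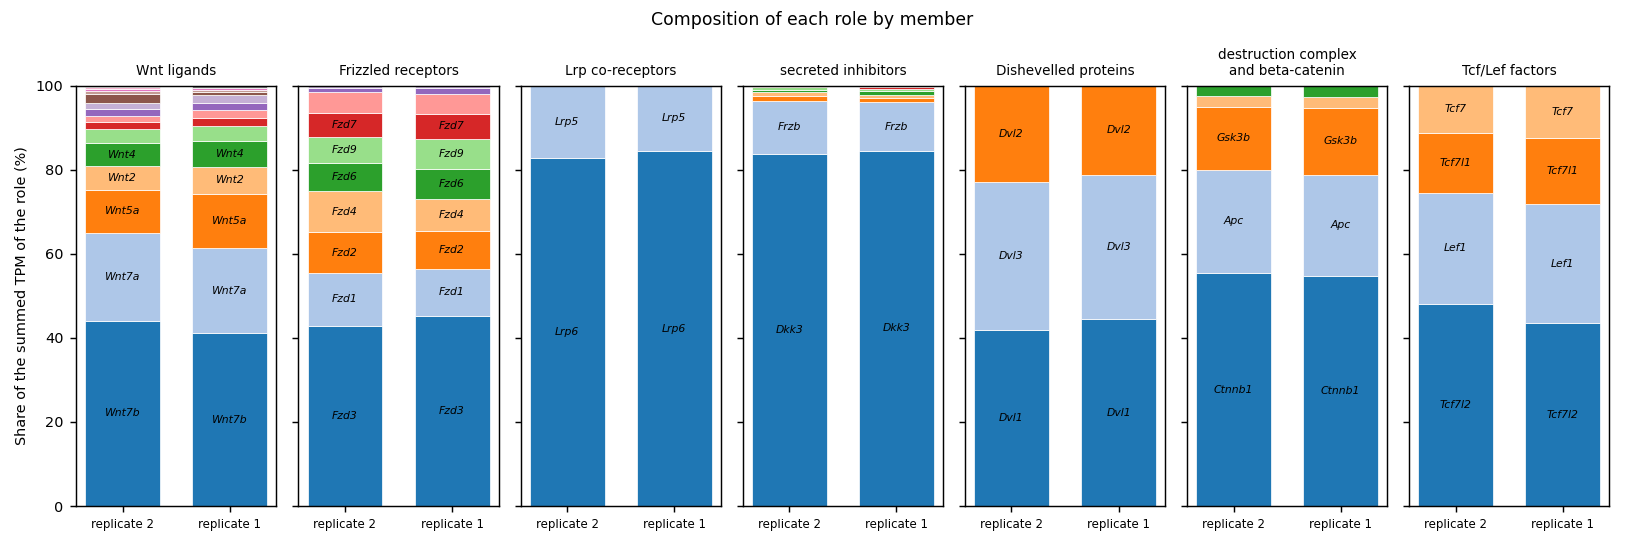
Share of each member in the summed TPM of its role (%), with replicate 2 as the left bar and replicate 1 as the right bar of each role; members above 5% in both libraries are named. A single gene holds over 80% of the co-receptors (Lrp6) and of the secreted inhibitors (Dkk3), and the leading gene of every role is the same in both libraries.

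Between the libraries, an exact binomial test on expected counts, with adjustment over 18270 genes, asked which genes differed by more than counting error; a gene was called apart at an adjusted p under 0.05 and a difference of at least 1.5-fold. Of 45 members tested (mean of at least 10 counts), 0 were apart, against 1.89% of all genes tested. At an unadjusted p under 0.05 stood 8 members by the binomial test, against 21.8% of all genes tested, and 2 by edgeR's exact negative binomial test, against 5.61% of all genes tested. The edgeR test also called 0 members apart, against 0.848% of all genes tested. Higher values were found for 24 members in replicate 2 and for 21 members in replicate 1, where 49.7% of all genes tested were higher in replicate 2. The median log2 ratio was 0.017 for members and −0.0010 for all genes tested. Within 1.5-fold lay 91.1% of the members tested and 92.8% of all genes tested. These tests compare 2 libraries and have no replicate check. The dispersion of the edgeR test was estimated from the same 2 libraries taken as replicates, which leans that test toward no call.

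With no fold minimum, 3 members passed an adjusted p of 0.05, all higher in replicate 2, where 11.4% of all genes tested passed. Fzd4 (chr7:89404355-89413134, plus strand) was 1.35-fold higher in replicate 2 (95% interval 1.18 to 1.55, exact binomial test, adjusted p = 0.000253). Frzb (chr2:80411970-80447625, minus strand) was 1.19-fold higher in replicate 2 (95% interval 1.07 to 1.33, exact binomial test, adjusted p = 0.0149). Lrp6 was 1.09-fold higher in replicate 2 by counts (95% interval 1.04 to 1.15, exact binomial test, adjusted p = 0.0102). Its TPM was lower there. Transcripts of Lrp6 under 1000 bases held 28.0% of its TPM in replicate 2 and 34.5% in replicate 1. They had 3.13% of its counts in replicate 2 and 4.02% in replicate 1. The coding transcript Lrp6-201 had 94.9% of its counts in replicate 2 and 92.7% in replicate 1. Lrp6-201 was at 14.65 TPM in replicate 2 and 13.35 TPM in replicate 1, the direction of the counts. None of Fzd4, Frzb and Lrp6 passed edgeR's exact negative binomial test at the common dispersion. That dispersion was estimated from the same 2 libraries taken as replicates, so this test cannot decide whether the 3 differences go beyond variation between animals.

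Replicate 2 also had the higher dentate and choroid plexus marker levels given above, and the part of these in the Frzb and Fzd4 differences was not tested. The 4 endothelial markers summed to 79.0 TPM in replicate 2 and 80.9 TPM in replicate 1, and none was at 0. By counts, 2 of the 4 were higher in each library: Cldn5 had a ratio of 0.771 (exact binomial test, adjusted p = 0.000586) and Ly6c1 a ratio of 1.22 (exact binomial test, adjusted p = 0.0417). The part of these in the Fzd4 difference was not tested. The largest ratios among tested members were in thinly counted genes. Wnt16 was at 25 counts in replicate 2 and 10 counts in replicate 1, for a ratio of 2.36 (95% interval 1.13 to 5.67, exact binomial test, adjusted p = 0.112). Wif1, which binds Wnt ligands outside the cell, was at 12 counts in replicate 2 and 22 counts in replicate 1, for a ratio of 0.540 (95% interval 0.239 to 1.12, exact binomial test, adjusted p = 0.316). Ctnnb1, Apc, Gsk3b, Dkk3 and Fzd3, the members with the most counts, all differed by less than 1.04-fold, with intervals inside 0.930 to 1.06.

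**Figure D3:**
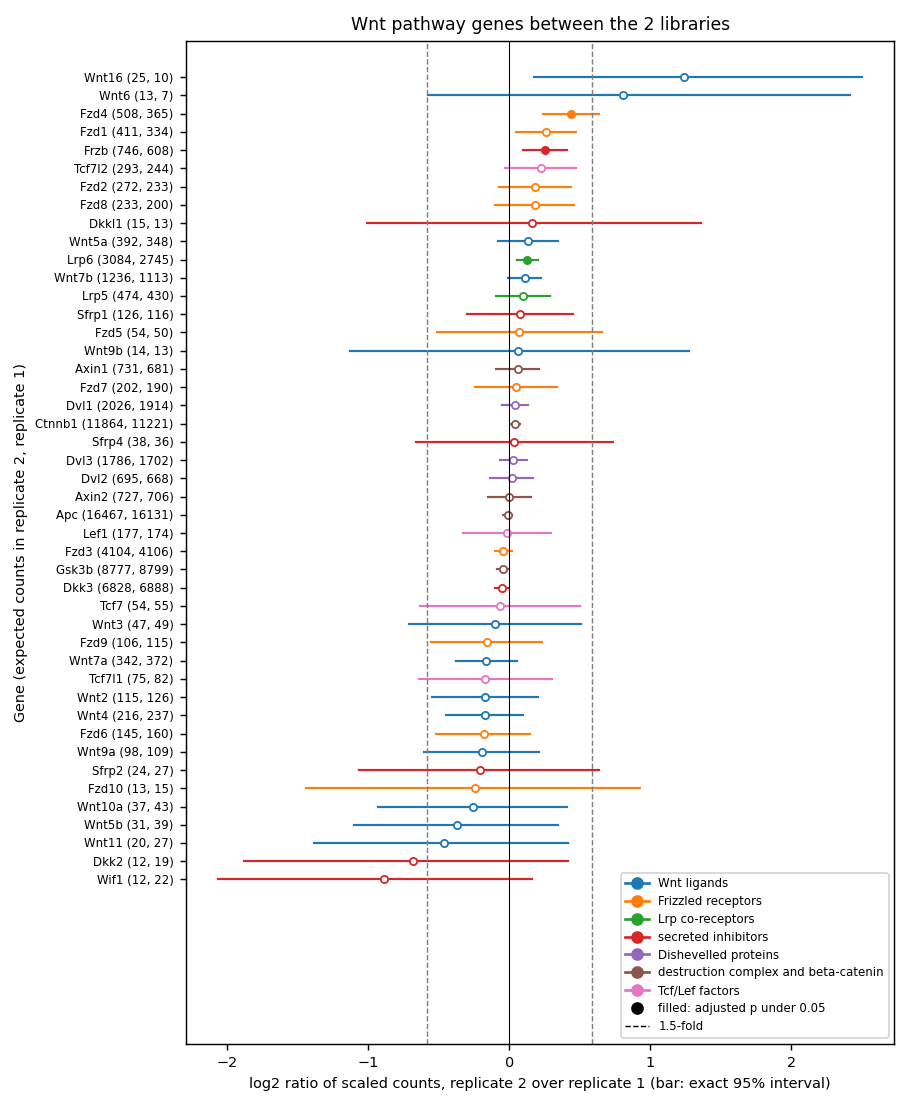
Log2 ratio of scaled counts, replicate 2 over replicate 1, for the 45 members tested, with exact 95% intervals as bars, filled points for an adjusted p under 0.05 and dashed lines at 1.5-fold; counts in replicate 2 and replicate 1 follow each name. Well-counted genes lie close to 0, Fzd4, Frzb and Lrp6 are filled, and the widest intervals belong to genes with few counts such as Wnt16 and Wif1.

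Transcripts were then read for the 31 members above 1 TPM. Of these, 10 had 1 annotated transcript, among them Dkk3, Wnt2, Wnt4, Sfrp1 and 6 Frizzled genes, and 21 had 2 or more. For 18 of the 21 the same transcript led in both libraries and both transcript tables, the first made together with the gene table and the second separately. The exceptions were Apc, Fzd6 and Wnt7b. In Wnt7b, Wnt7b-202 held 44.5% of the gene's TPM in replicate 2 and 46.7% in replicate 1 in the first table, whereas the second table gave it 28.6% in replicate 2 and 25.6% in replicate 1 and put Wnt7b-201 first in replicate 2 and Wnt7b-204 first in replicate 1. In Apc the first table gave Apc-202 39.5% in replicate 2 and 39.3% in replicate 1, and the second table put Apc-203 first with 38.6% in replicate 2 and 41.5% in replicate 1. All of these Wnt7b and Apc transcripts are annotated as protein-coding. In Fzd6 the first table put the retained-intron transcript Fzd6-203 first in replicate 2 with 32.9%. That transcript had 0% in replicate 1, where Fzd6-201 led. The second table put Fzd6-202 first in both libraries. Exons of Wnt7b overlap the antisense gene AU022754 by 324 bases, and that gene had only 48 counts in replicate 2 against 51 in replicate 1.

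Among members of at least 5 TPM, several spread their level over transcripts that are annotated as other than protein-coding. Dvl2 was the most extreme: its coding transcript Dvl2-201 led with only 23.8% of TPM in replicate 2 and 23.1% in replicate 1, and retained-intron transcripts held 61.9% in replicate 2 and 58.7% in replicate 1. The second table gave retained introns of Dvl2 57.0% in replicate 2 and 54.8% in replicate 1. All Dvl2 transcripts other than protein-coding held 69.0% of TPM in replicate 2 and 67.8% in replicate 1 in the first table. By counts they held less, 47.0% in each library. Exons of Dvl2 overlap those of Acadvl on the opposite strand by 1151 bases, and since the strand setting of the counting is not given in the sources used here, the reads of both genes cannot be told apart there. For Dvl1 the leading Dvl1-201 held 40.5% of TPM in replicate 2 and 31.3% in replicate 1, with retained-intron shares of 33.6% in replicate 2 and 32.5% in replicate 1 in the first table, and 33.7% in replicate 2 and 37.0% in replicate 1 in the second.

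For Ctnnb1, Ctnnb1-201 held 51.0% of TPM in replicate 2 and 49.0% in replicate 1, and the retained-intron transcript Ctnnb1-215 of 1292 bases held 30.2% in replicate 2 and 29.5% in replicate 1. The second table gave Ctnnb1-215 19.8% in replicate 2 and 23.9% in replicate 1. All Ctnnb1 transcripts other than protein-coding held 38.8% of TPM in replicate 2 and 39.7% in replicate 1 in the first table. By counts they held less, 17.5% in replicate 2 and 18.3% in replicate 1. On protein-coding transcripts alone, Ctnnb1 was at 139 TPM in replicate 2 and 138 TPM in replicate 1. Exons of Ctnnb1 overlap Ulk4 on the opposite strand by 759 bases, and Ulk4 was at 280 counts in replicate 2 and 272 in replicate 1. In the first table the noncoding Frzb-202 held 30.8% of Frzb TPM in replicate 2 and 40.3% in replicate 1. Its counts there were 72.0 in replicate 2 and 84.6 in replicate 1, beside 674 in replicate 2 and 523 in replicate 1 for Frzb-201. The second table gave Frzb-202 46.2% in replicate 2 and 38.5% in replicate 1, the opposite direction. The protein-coding Frzb-201 was higher in replicate 2 in both tables. Its level was 10.25 TPM in replicate 2 and 8.35 TPM in replicate 1 in the first table. In the second it was 16.6 TPM in replicate 2 and 14.3 TPM in replicate 1. Only the direction of the share of Frzb-202 depended on the table. Dvl1, Dvl2 and Frzb were the 3 members with at least 30% of TPM on transcripts other than protein-coding in both libraries and both tables.

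Dvl3 was split among coding transcripts, and Tcf7l2 among coding and retained-intron transcripts. Dvl3-203 had 55.0% of TPM in replicate 2 and 57.5% in replicate 1, with Dvl3-201 next at 38.4% in replicate 2 and 34.8% in replicate 1. Tcf7l2 has 22 annotated transcripts, the leading Tcf7l2-209 held 39.4% in replicate 2 and 35.8% in replicate 1, and retained introns held 24.1% in replicate 2 and 34.9% in replicate 1. At Lef1 the full-length Lef1-201 held 76.6% of TPM in replicate 2 and 70.6% in replicate 1. The transcripts beginning at the first internal start printed above (Lef1-203, Lef1-205 and Lef1-206) held 23.4% in replicate 2 and 8.39% in replicate 1. Retained-intron transcripts of Lef1 held 23.4% in replicate 2 and 19.6% in replicate 1. In replicate 2 the level at this start therefore lay on retained-intron transcripts and not on coding ones. No annotated transcript began within 100 bases of the second internal start. By contrast Gsk3b-201 and Axin2-201, which begin at the starts printed above, led their genes: Gsk3b-201 held 75.9% in replicate 2 and 72.9% in replicate 1, and Axin2-201 held 71.4% in replicate 2 and 71.5% in replicate 1.

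**Figure D4:**
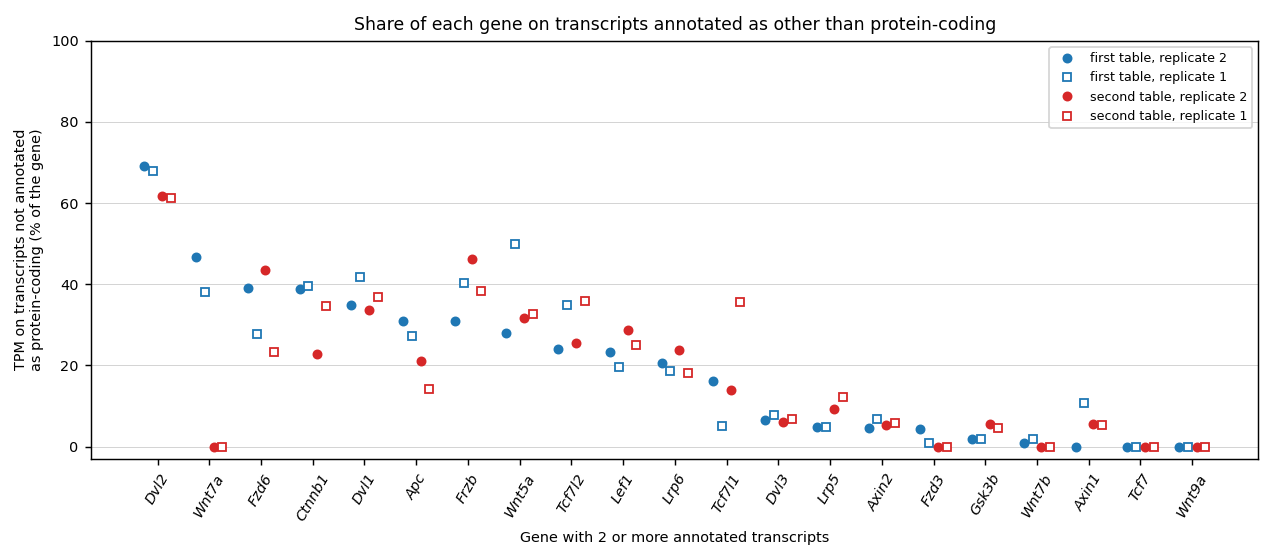
Share of each gene's TPM (%) on transcripts annotated as other than protein-coding, for the 21 members above 1 TPM with 2 or more annotated transcripts, in the first table (blue) and second table (red), filled for replicate 2 and open for replicate 1. Dvl2 is highest in all 4 readings, from 61.2% to 69.0%, and Wnt7a has 46.6% in replicate 2 and 38.2% in replicate 1 in the first table but 0 in the second.

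Among the 31 members above 1 TPM, the level relative to other protein-coding genes was compared between the tables. TPM was higher in the second table for protein-coding genes as a whole, 1.70-fold in replicate 2 and 1.67-fold in replicate 1 at the median, and after centring on this median 1 of 31 members differed by at least 1.5-fold the same way in both libraries, against 4.27% of 12685 protein-coding genes (1.08% higher and 3.19% lower in the first table). That member was Wnt7a, relatively higher in the first table by 0.88 in replicate 2 and 0.74 in replicate 1 on the log2 scale. Next came Tcf7l1 (−0.13 in replicate 2 and −0.57 in replicate 1), Axin2 (−0.33 in replicate 2 and −0.28 in replicate 1) and Apc (0.28 in replicate 2 and 0.32 in replicate 1), each under 1.5-fold in both libraries.

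In Wnt7a the difference between tables lay in very short transcripts. Wnt7a-202 and Wnt7a-203, processed transcripts of 297 and 293 bases, lie wholly within untranslated exon sequence of the 3172-base coding transcript Wnt7a-201 and share no coding base with it. They received 5.28% of the gene's counts in replicate 2 and 3.76% in replicate 1 in the first table, yet 46.6% of its TPM in replicate 2 and 38.2% in replicate 1, and 0 counts in the second table. Without them Wnt7a was at 4.89 TPM in replicate 2 and 5.67 TPM in replicate 1. On transcripts of at least 1000 bases the mean was 5.28 TPM for Wnt7a and 3.89 TPM for Wnt5a, so Wnt7a kept its place after Wnt7b. Its share of the summed ligand level was 20.9% in replicate 2 and 20.2% in replicate 1 in the gene table. In the second table that share was 13.2% in replicate 2 and 14.2% in replicate 1.

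In Wnt5a a short transcript set the sign of the TPM difference. Wnt5a-204, a processed transcript of 337 bases, had 0 counts in replicate 2 and 7.88 counts in replicate 1, which gave 0 TPM in replicate 2 and 1.61 TPM in replicate 1. Without it Wnt5a was at 4.45 TPM in replicate 2 and 4.32 TPM in replicate 1, the direction of its counts. Opposite directions of the TPM ratio and the count ratio occurred in 19.0% of 12685 protein-coding genes.

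**Figure D5:**
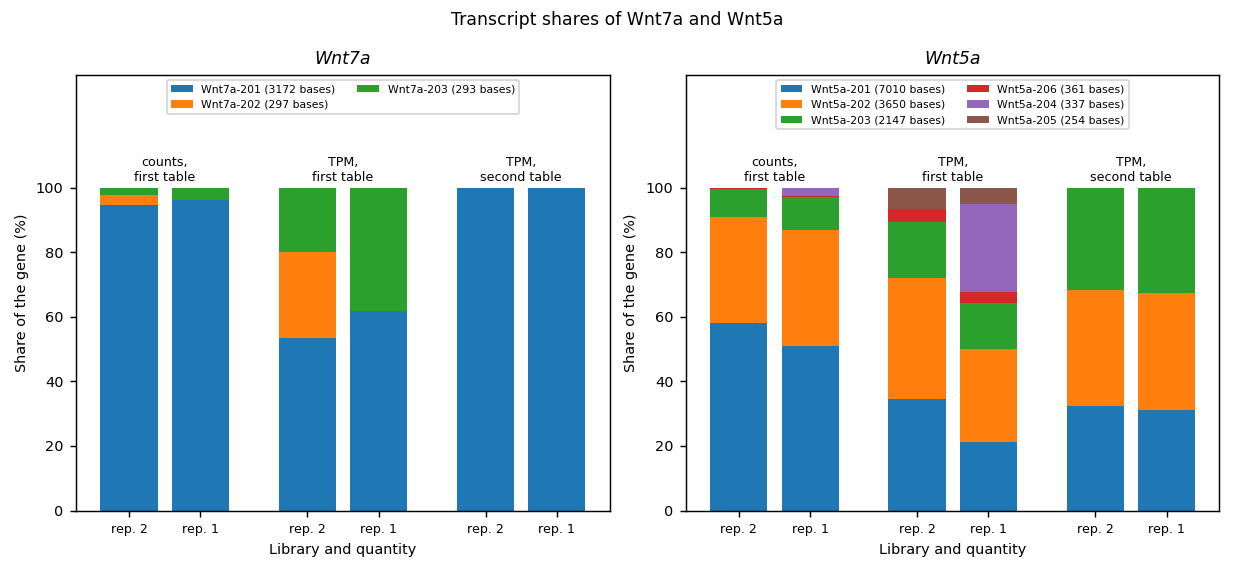
Shares of each annotated transcript (%) in the counts of the first table, the TPM of the first table and the TPM of the second table for Wnt7a (left) and Wnt5a (right), with replicate 2 left of replicate 1 in each pair. Transcripts of up to 361 bases take at most 5.28% of counts but up to 46.6% of the first table's TPM for Wnt7a, and none of the second table's.

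Around the members, 84 other genes of the pathway were read from lists chosen with earlier results of these data known. Of these genes, 72 passed 1 TPM in both libraries, where 57.8% of protein-coding genes did. All 20 cytoplasmic regulators and all 17 nuclear partners passed, with 6 of 7 secretion genes, 12 of 13 polarity genes, 10 of 15 further receptors and antagonists and 5 of 9 genes of the R-spondin module, whose ligands stabilise Frizzled at the membrane. The highest in each list were Porcn (39.2 TPM in replicate 2 and 42.3 TPM in replicate 1), which acylates Wnt ligands, and Gpc4 among secretion genes; Csnk1a1 (130 TPM in replicate 2 and 132 TPM in replicate 1) and Gsk3a among cytoplasmic regulators; and Aes (264 TPM in replicate 2 and 279 TPM in replicate 1) and Ctbp1 among nuclear partners. Rac1 (161 TPM in replicate 2 and 163 TPM in replicate 1) and Prickle2 led the polarity genes, Ryk (18.5 TPM in replicate 2 and 18.0 TPM in replicate 1) and Lrp4 the further receptors, and Lgr4 (1217 counts in replicate 2 and 1088 in replicate 1) and Znrf3 the R-spondin module.

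The cofactors through which Wnt7a and Wnt7b reach endothelium were present, Reck at 2.97 TPM in replicate 2 and 2.94 TPM in replicate 1 and Adgra2 at 3.71 TPM in replicate 2 and 3.31 TPM in replicate 1. Of 13 genes listed as pathway targets, 10 passed 1 TPM in both libraries, where 57.8% of protein-coding genes did. Of the 12 tested, 0 were apart, against 1.89% of all genes tested. By mean level the list was led by the member Lrp6, followed by Tnfrsf19 (19.2 TPM in replicate 2 and 20.4 TPM in replicate 1) and Ccnd1 (20.1 TPM in replicate 2 and 18.9 TPM in replicate 1), whose order differed between the libraries. Of the 80 pathway genes outside the members that were tested, 1 was apart and higher in replicate 2 and 1 was apart and lower there, where 1.23% of all genes were apart and higher in replicate 2 and 0.662% apart and lower. Rspo2, an R-spondin ligand, was at 301 counts in replicate 2 and 451 in replicate 1. Sostdc1, a Wnt and BMP antagonist also expressed in choroid plexus, was at 73 counts in replicate 2 and 34 in replicate 1, the direction of the choroid plexus markers, whose part in it was not tested.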

How the data were processed

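Hippocampal total RNA of 2 libraries (replicates 2 and 1, 300 ng each, per the labels) was analysed. Per gene, a table of the authors lists an expected count and TPM; the authors' first transcript table gives the same per transcript with each transcript's share in its gene as a percent. The authors' second transcript table gives an estimated count and TPM per transcript, which were summed per gene. The posterior standard deviation of a count, a score in the deposited tables, marked genes with shared reads; no member was marked. Reads were quantified by the authors on mm10 and GENCODE M21, according to the files' deposited descriptions; which programs and strand setting they used is not given in the sources used here. Levels are the authors' TPM as deposited, over all entries of a table: protein-coding genes hold 43.5% in replicate 2 and 44.5% in replicate 1 in the gene table, and 77.7% and 77.9% in the second.

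Expected counts were rounded and scaled by TMM (edgeR 4.0.16, R 4.3.3). Genes with a mean of at least 10 counts were compared by an exact two-sided binomial test (SciPy 1.17.1) with Benjamini-Hochberg adjustment over all 18270; folds add 0.5 to scaled counts. The common biological coefficient of variation used in edgeR's exact test was 0.0644, estimated with the 2 libraries taken as replicates of each other. Intervals are exact (Clopper-Pearson, 95%); they and the limit of 3 counts for a gene at 0 cover counting error only, since reads carry no molecular identifiers and are not independent molecules. Tables were compared as log2 TPM with 0.01 added. Alternatives were DESeq2 1.42.0 size factors, totals, ERCC totals, other filters, the second table, other fold minimums and edgeR's exact test. ERCC and other non-gene rows were left out (0.408% and 0.421% of counts for ERCC). The genes given are all members by role, with transcripts for those of at least 5 TPM whose leading transcript holds under 60%, is not protein-coding or differs between tables (Frzb, Tcf7l2, Lef1, Gsk3b, Axin2, Wnt5a and Fzd6 were added after their values were seen). Members and lists were chosen with earlier results of these data known.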

Additional observations from a re-analysis of the deposited data

How the results depend on the processing

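No paired analysis was possible because the series has a single group, and leaving out a library ends the test between libraries. Members apart between the libraries stayed at 0 under DESeq2 size factors, totals, ERCC totals, both other count filters, a 2-fold minimum, edgeR's exact test and without genes of shared reads, and were 1 in the second table (Wnt16) and 3 by adjusted p alone (Fzd4, Frzb and Lrp6). The log2 ratio of Lrp6 was 0.13 by counts and −0.068 by TPM. The median ratio of members ranged from 0.0092 to 0.055 on the log2 scale. Members detected numbered 31 at 1 TPM, 38 at 0.5 TPM, 14 at 5 TPM, 44 at 10 counts, 38 with TPM rescaled over protein-coding genes, 38 in the second table, and 31 to 32 with a library left out. Over all protein-coding genes the share was read only at 1 TPM (57.8%) and 5 TPM (45.0%). Members apart between tables were 0 at 2-fold and 23 without centring, where 78.1% of all genes were apart, and 1 with either library left out. The leading transcript was shared by the tables for 18 genes in each library alone. Read from the second table, the share of Lrp6 was 85.3%, of Dkk3 81.6%, of Dvl1 41.4% and of Ctnnb1 57.4% of their roles. TPM levels moved by more than 1 SD for 31 of 31 members when read from the second table and for 31 of 31 when rescaled over protein-coding genes. Rescaling raises all protein-coding genes of a library by the same factor. At the median, TPM in the second table was 1.70-fold higher in replicate 2 and 1.67-fold higher in replicate 1. Both counts follow largely from these changes of scale and do not measure how stable the levels are. Levels restricted to transcripts of at least 1000 bases, chosen after seeing the data, moved by more than 1 SD for 13 of 31 members. Intervals of members with few counts were wide. That of Wnt9a, at 98 counts in replicate 2 and 109 in replicate 1, ran from 0.659 to 1.16. Wnt16, at 25 counts in replicate 2 and 10 in replicate 1, had a ratio of 2.36 and was not called apart in the gene table. Differences of 1.5-fold or more in thinly counted members could thus go uncalled at this depth.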
